A study of Mus musculus with 24 samples.

Results

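The 10 genes described here carry glucose from uptake to lactate export: the glucose transporter Slc2a1, the glycolytic enzymes Hk2, Pfkl, Aldoa, Pgk1, Eno1 and Pkm, lactate dehydrogenase Ldha, the pyruvate dehydrogenase kinase Pdk1 and the lactate exporter Slc16a3. They were taken by symbol from a given list, and all 10 were present among the 31618 genes of the LLC1 table and the 36040 genes of the KP table. RNA came from live CD45-negative cells sorted from mouse tumours at day 15, with 24 libraries in 8 groups of 3. LLC1 is the Lewis lung carcinoma line, and KP is a line from a genetically engineered mouse model of lung cancer. The LLC1 groups were chronic IFNG tumours, described in the series as exposed to low-level chronic interferon gamma, relapsed tumours, which had escaped immune checkpoint blockade, and parental tumours. The KP groups were chronic IFNG, 1st relapse, 2nd relapse, late relapse and parental tumours. The labels give no treatment to any harvested sample, so the names refer to the history of the cells that were grown. They do not say how late relapse stands in time to 2nd relapse, whether each group is a single clone, or the strain and age of the mice. They also do not say that the 3 libraries of a group came from separate animals, so the p-values measure the spread between these libraries only.

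Glycolysis splits glucose into pyruvate in the cytosol and yields ATP without oxygen. Many tumour cells convert most of this pyruvate to lactate and export it with protons, even where oxygen is present. Hypoxia-inducible factors and Myc raise transcription of most genes of the pathway, and Pdk1 diverts pyruvate from the mitochondria by phosphorylating pyruvate dehydrogenase.

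Estimated depth was 13.4 to 34.8 M fragments in LLC1 libraries and 13.7 to 32.6 M in KP libraries. The deposited values were log2 values after variance stabilisation, and normalised counts were calculated back from them. Fold values below are ratios of mean normalised counts, whereas log2 differences are on the deposited scale, which compresses differences at low counts. A gene was called where its adjusted p from limma was below 0.05. The sorted cells had few transcripts of leukocyte markers, which summed to between 5.66 and 33.1 CPM (counts scaled to the library total) over all libraries. The epithelial marker sum was 4339 to 8475 CPM in KP libraries but 196 to 373 in LLC1 libraries. In LLC1, Epcam reached no more than 28.3 normalised counts and Cdh1 no more than 17.4. In both lines the lung lineage factor Nkx2-1 did not pass 10.3 normalised counts.

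All 10 genes passed the filter on low values in both lines. In parental tumours the exporter was the least abundant of the 10 genes per kilobase of exon. In parental LLC1 tumours, Pkm averaged 14215 normalised counts per kb, Pgk1 12274, Slc2a1 4382 and Slc16a3 219. In parental KP tumours, Pkm averaged 12542 normalised counts per kb, Pgk1 11959, Slc2a1 1171 and Slc16a3 56.2. In 2nd relapse KP tumours Slc16a3 averaged 1538 normalised counts per kb, above Hk2 at 1253 and Pfkl at 1076. The most similar copies were near the detection limit, with Eno1b at no more than 51.1 normalised counts, Aldoart1 at no more than 3.62, Aldoart2 at no more than 4 and Ldhc at no more than 3.07 in either line. Ldhal6b had between 3.54 and 29.4 normalised counts. A second gene identifier with the symbol Aldoa had 4.86 to 34.3 normalised counts and was left out in favour of the abundant one.

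Promoters are shown for 4 genes on which the results turn: Slc2a1, which fell in relapsed LLC1 and rose in 2nd relapse KP tumours, Ldha, whose profile was close to the median of the 10 genes in LLC1, Pgk1, the 1 gene of the 10 not called between 2nd and 1st relapse KP tumours, and Slc16a3, which had the largest differences of the 10 in KP. Each runs 5′ to 3′ from 250 bases before to 50 bases after a RefSeq transcription start in build GRCm38.p6. Capitals mark ACGTG and GCGTG on either strand, which hold the core of the hypoxia response element, so that CACGT and CACGC are the same motifs read on the other strand. Where CACGTG occurs, ACGTG overlaps itself on the opposite strand. Ldha has a second RefSeq entry, not shown, which holds GCGTG but neither ACGTG nor CACGTG.
Slc2a1, chr4:119108495-119108794, plus strand: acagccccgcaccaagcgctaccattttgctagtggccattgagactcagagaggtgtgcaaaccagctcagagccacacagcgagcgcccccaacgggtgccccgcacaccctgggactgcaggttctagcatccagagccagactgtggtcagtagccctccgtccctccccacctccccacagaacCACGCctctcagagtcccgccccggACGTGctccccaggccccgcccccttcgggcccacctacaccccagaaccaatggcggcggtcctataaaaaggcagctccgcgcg
Ldha, chr7:46845554-46845853, plus strand: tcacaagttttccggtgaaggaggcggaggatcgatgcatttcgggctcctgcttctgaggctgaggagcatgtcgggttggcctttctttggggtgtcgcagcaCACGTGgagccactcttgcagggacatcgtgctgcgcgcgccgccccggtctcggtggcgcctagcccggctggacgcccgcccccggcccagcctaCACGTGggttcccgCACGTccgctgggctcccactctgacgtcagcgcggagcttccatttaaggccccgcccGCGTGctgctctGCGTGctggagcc
Pgk1, chrX:106186850-106187149, plus strand: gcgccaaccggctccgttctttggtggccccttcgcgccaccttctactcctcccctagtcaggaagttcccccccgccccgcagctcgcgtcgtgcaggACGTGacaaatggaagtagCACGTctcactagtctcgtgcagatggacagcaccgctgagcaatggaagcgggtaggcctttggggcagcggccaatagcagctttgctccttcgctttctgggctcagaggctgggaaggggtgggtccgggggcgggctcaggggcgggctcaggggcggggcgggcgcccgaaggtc
Slc16a3, chr11:120948817-120949116, plus strand: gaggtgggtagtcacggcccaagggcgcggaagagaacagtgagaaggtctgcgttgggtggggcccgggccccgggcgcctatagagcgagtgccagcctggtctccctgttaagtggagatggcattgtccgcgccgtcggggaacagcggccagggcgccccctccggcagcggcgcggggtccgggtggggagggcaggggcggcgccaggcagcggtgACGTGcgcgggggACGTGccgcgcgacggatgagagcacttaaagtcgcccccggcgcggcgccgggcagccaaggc

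At least 1 of these motifs was present in an entry of each of the 10 genes, and in 14 of the 17 promoter entries of these genes. ACGTG or GCGTG was present in 43.8% of all 32851 mouse promoter entries of this length. ACGTG alone was found in 8 of the 17 entries and in 19.6% of all entries. CACGTG is the E-box read by Myc and its partners as well as part of some hypoxia response elements. It was found in 1 of the 17 entries, the Ldha entry shown, and in 7.15% of all entries. Some genes have several overlapping entries, and a match describes the letters in this window, not binding.

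In chronic IFNG LLC1 tumours, the pathway was lower than in parental LLC1 tumours: 8 of the 10 genes fell and none rose. Over all 10581 tested genes, 24.5% were called in this comparison, 9.03% as higher and 15.5% as lower. The median log2 difference was -0.39 over the 10 genes, against -0.02 over all tested genes. The exporter changed most. Slc16a3, which encodes the proton-coupled lactate carrier MCT4, had 309, 412 and 373 normalised counts in chronic IFNG tumours, against 1323, 1250 and 926 in parental tumours. The groups did not overlap, and the mean was 3.20-fold lower (log2 difference -1.03, SE 0.13, limma adjusted p = 0.000822). Bulk RNA cannot tell fewer cells of a type from less RNA per cell.

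Hk2, the hexokinase that phosphorylates glucose on entry, had 4841, 5990 and 5609 normalised counts in chronic IFNG LLC1 tumours, against 11459, 8841 and 7888 in parental LLC1 tumours. All 3 chronic IFNG libraries lay below the lowest parental one, and the mean was 1.72-fold lower (log2 difference -0.71, SE 0.12, limma adjusted p = 0.0028). Pdk1 had 2727, 2491 and 2991 normalised counts in chronic IFNG tumours and 4481, 4092 and 3897 in parental tumours. It was 1.52-fold lower (limma adjusted p = 0.00793), again without overlap. The enzymes of the middle and end of the pathway fell less. Log2 differences were -0.39 for Aldoa, the aldolase that splits the doubly phosphorylated sugar, -0.42 for Pkm, the pyruvate kinase, -0.39 for Ldha, which reduces pyruvate to lactate, -0.38 for Eno1, the enolase, and -0.38 for Pfkl, a phosphofructokinase. Their limma adjusted p lay between 0.00513 and 0.0183.

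The glucose transporter was not called. Slc2a1, which encodes GLUT1, had 9946, 12803 and 13048 normalised counts in chronic IFNG LLC1 tumours, against 17733, 14090 and 14268 in parental LLC1 tumours. The groups did not overlap, yet the log2 difference of -0.35 (95% interval -0.67 to -0.04) had a limma adjusted p of 0.093. Pgk1, which makes the first ATP of the pathway, averaged 22829 ± 2663 normalised counts in chronic IFNG tumours and 27544 ± 2273 in parental tumours (SD, n = 3 each, limma adjusted p = 0.082). Parental replicate 1 was the highest parental library for all 10 genes. Without it 5 genes were called, since Pfkl, Ldha and Eno1 then had limma adjusted p of 0.0694, 0.0515 and 0.0505. Pfkl was also lost without parental replicate 2 (limma adjusted p = 0.0627) or chronic IFNG replicate 1 (0.0563) and with no filter (0.051), and Pgk1 was gained without chronic IFNG replicate 3 (0.0338).

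**Figure D1:**
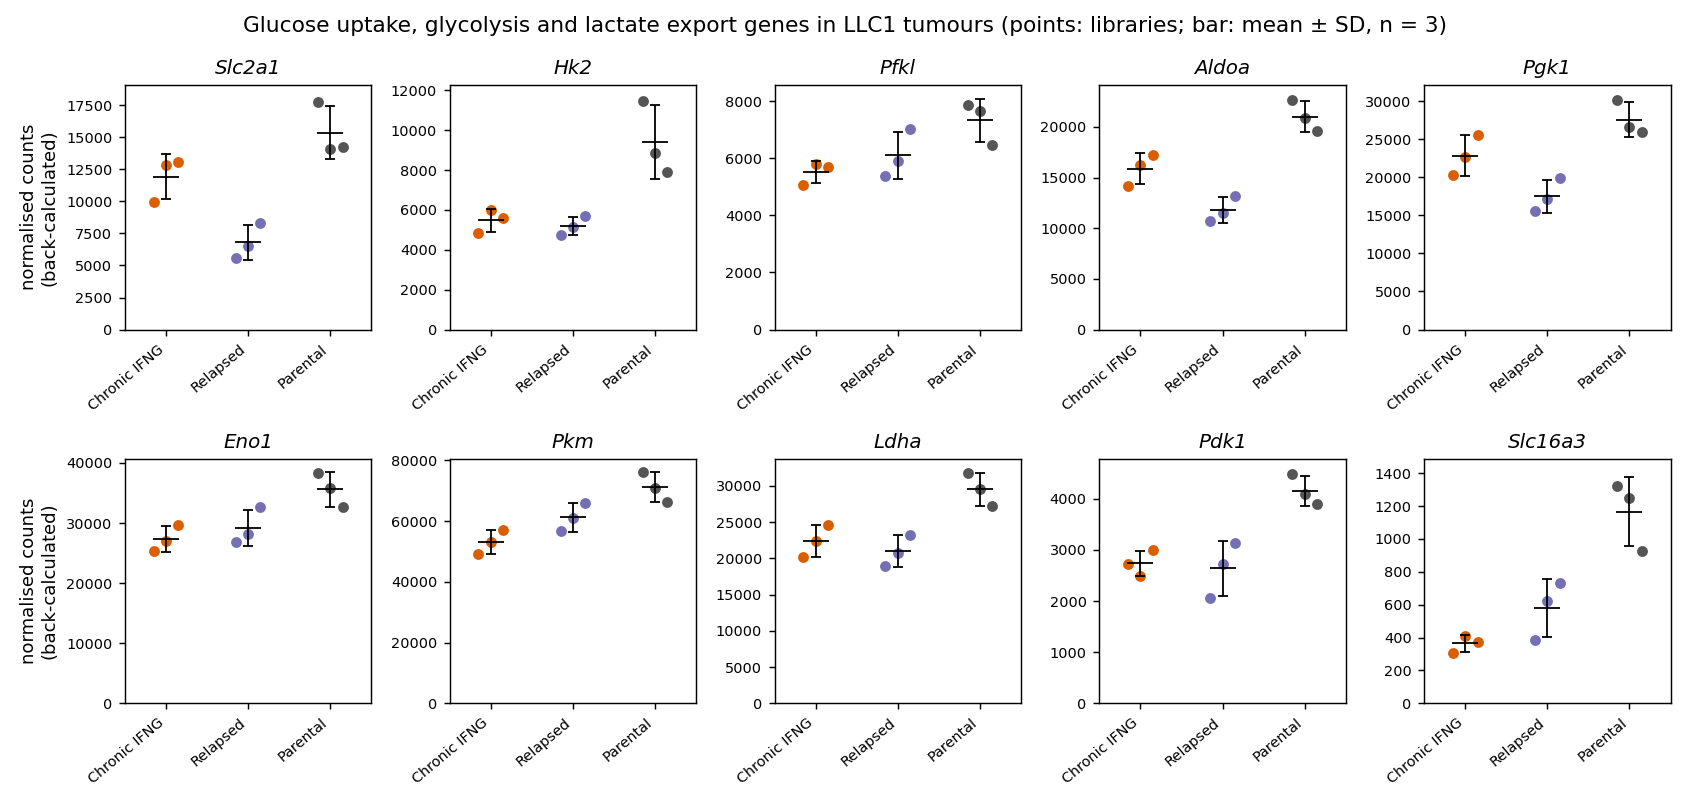
Normalised counts (y axis, linear from 0) of the 10 genes in chronic IFNG, relapsed and parental LLC1 tumours, with points for libraries in replicate order and bars for the mean ± SD (n = 3). Parental libraries are highest on average in every panel, and Slc16a3 sits between 309 and 412 in chronic IFNG tumours, below all parental libraries.

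In relapsed LLC1 tumours, 9 of the 10 genes fell relative to parental LLC1 tumours and none rose. Of all tested genes, 45.4% were called in this comparison, 25.9% as higher and 19.5% as lower. The median log2 difference was -0.61 over the 10 genes and 0.03 over all tested genes. Slc2a1 changed most on the log2 scale, with 5598, 6525 and 8286 normalised counts in relapsed tumours, against 17733, 14090 and 14268 in parental tumours. The highest relapsed library was far below the lowest parental one, and the mean was 2.26-fold lower (log2 difference -1.13, SE 0.14, limma adjusted p = 0.000127).

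Slc16a3 had 387, 622 and 730 normalised counts in relapsed LLC1 tumours, against 1323, 1250 and 926 in parental LLC1 tumours. It was 2.01-fold lower (limma adjusted p = 0.00185), with relapsed replicate 1 well below the other 2 relapsed libraries. Aldoa had 10739, 11503 and 13171 normalised counts in relapsed tumours and 22610, 20841 and 19595 in parental tumours. It was 1.78-fold lower (log2 difference -0.81, SE 0.09, limma adjusted p = 5.89e-05). Hk2 was 1.81-fold lower (limma adjusted p = 0.000463), Pgk1 1.57-fold (0.000588), Pdk1 1.57-fold (0.0018) and Ldha 1.40-fold (0.00176), all without overlap.

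The last steps before pyruvate differed less between relapsed and parental LLC1 tumours. Pkm averaged 61195 ± 4643 normalised counts in relapsed tumours and 71091 ± 4941 in parental tumours (SD, n = 3 each), 1.16-fold lower (limma adjusted p = 0.0481). The sign of the Pkm difference turned under quantile normalisation, to a log2 difference of 0.11. The Pkm call was lost with no filter (limma adjusted p = 0.0954) and with the replicate number as a block (0.0752). Eno1 was 1.22-fold lower (limma adjusted p = 0.0234), a call lost with no filter (0.0529) and under quantile normalisation (log2 difference -0.10, 0.368). Both calls were lost without parental replicate 1 or 2 or relapsed replicate 1 or 2, with limma adjusted p of 0.0982 to 0.166 for Pkm and 0.0602 to 0.0919 for Eno1. Pfkl, at 1.20-fold lower, was not called (limma adjusted p = 0.0564), but was called without parental replicate 3 (0.0219) or relapsed replicate 3 (0.0146), under median centring (0.0373) or with array weights (0.0425).

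Relapsed and chronic IFNG LLC1 tumours share the parental libraries as their control, so they were also compared with each other. Of all tested genes, 52% were called between them, 31.5% as higher and 20.5% as lower in relapsed tumours. Among the 10 genes, 3 were lower and 1 higher. Slc2a1 averaged 6803 ± 1366 normalised counts in relapsed tumours and 11932 ± 1725 in chronic IFNG tumours (SD, n = 3 each), 1.75-fold lower (limma adjusted p = 0.00105). Aldoa was 1.35-fold lower (limma adjusted p = 0.00311) and Pgk1 1.31-fold lower (0.011).

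Slc16a3 averaged 579 ± 175 normalised counts in relapsed LLC1 tumours and 365 ± 52.1 in chronic IFNG LLC1 tumours (SD, n = 3 each). The groups overlapped, and the call (limma adjusted p = 0.0428) was lost without any 1 of the 6 libraries except relapsed replicate 1, with adjusted p of 0.0546 to 0.166. The Slc16a3 call was also lost with no filter, quantile normalisation, median centring or the replicate block, with limma adjusted p of 0.0556 to 0.0874. Hk2, Pdk1, Ldha, Eno1 and Pfkl were not called, with log2 differences between -0.09 and 0.13. Pkm was 0.20 higher on the log2 scale in relapsed tumours (95% interval 0.03 to 0.38, limma adjusted p = 0.0545) and was called without chronic IFNG replicate 3 (0.0305) or relapsed replicate 1 (0.0327), with no intensity trend (0.0453), with array weights (0.0282) and under quantile normalisation (log2 difference 0.37, 0.000339).

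Fibroblast markers and proliferation genes also moved in LLC1. The fibroblast marker sum was 20220 to 31770 CPM in chronic IFNG tumours, 12200 to 13880 in relapsed tumours and 10900 to 15440 in parental tumours. Most of it was Col3a1, which averaged 272367 ± 17403 normalised counts in relapsed and 268299 ± 50818 in parental tumours (SD, limma adjusted p = 0.879). Dcn, in contrast, averaged 9718 ± 474 in relapsed and 19376 ± 1101 in parental tumours (limma adjusted p = 2.91e-05). Of the 8 markers, 7 rose in chronic IFNG tumours and 5 fell in relapsed tumours, relative to parental tumours. Of 10 proliferation genes, 10 fell in chronic IFNG tumours, whereas 5 rose and none fell in relapsed tumours. The shares over all tested genes were 9.03% higher and 15.5% lower in chronic IFNG tumours, and 25.9% and 19.5% in relapsed tumours. The division marker Mki67 averaged 3906 ± 333 normalised counts in chronic IFNG tumours, 8306 ± 404 in relapsed tumours and 6213 ± 893 in parental tumours (SD, n = 3 each). The erythroid marker sum reached 38.7 CPM in a relapsed library and stayed at or below 2.22 in chronic IFNG and 1.02 in parental libraries. The part of these markers in the differences of the glycolytic genes was not tested.

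In chronic IFNG KP tumours the pathway stood close to parental KP tumours apart from the exporter: 1 gene rose, 2 fell and 7 were not called. Of all 11193 tested genes, 21.8% were called, 12.8% as higher and 9% as lower. The median log2 difference was -0.02 over the 10 genes and -0.01 over all tested genes. Slc16a3 had 876, 670 and 860 normalised counts in chronic IFNG tumours, against 326, 281 and 290 in parental tumours. Every chronic IFNG library stood above the highest parental one, and the mean was 2.69-fold higher (log2 difference 0.77, SE 0.11, limma adjusted p = 0.000131).

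Pkm averaged 52797 ± 1900 normalised counts in chronic IFNG KP tumours and 62725 ± 591 in parental KP tumours (SD, n = 3 each), 1.19-fold lower (limma adjusted p = 0.00519). Eno1 was 1.14-fold lower (limma adjusted p = 0.0225), a call lost without parental replicate 1 (0.0747), parental replicate 3 (0.0645) or chronic IFNG replicate 1 (0.112), with no filter (0.0604), with the 2 groups alone (0.0579) and under quantile normalisation (log2 difference -0.09, 0.144). Hk2 had 4616, 4872 and 5018 normalised counts in chronic IFNG tumours, against 3128, 3638 and 4723 in parental tumours. Parental replicate 3 overlapped the chronic IFNG libraries, and the limma adjusted p was 0.0509, or 0.00299 without that replicate and 0.0272 to 0.0424 with a stricter filter, quantile normalisation, array weights or the replicate number as a block. Slc2a1, Pfkl, Aldoa, Pgk1, Ldha and Pdk1 were not called, with log2 differences between -0.05 and 0.17.

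**Figure D2:**
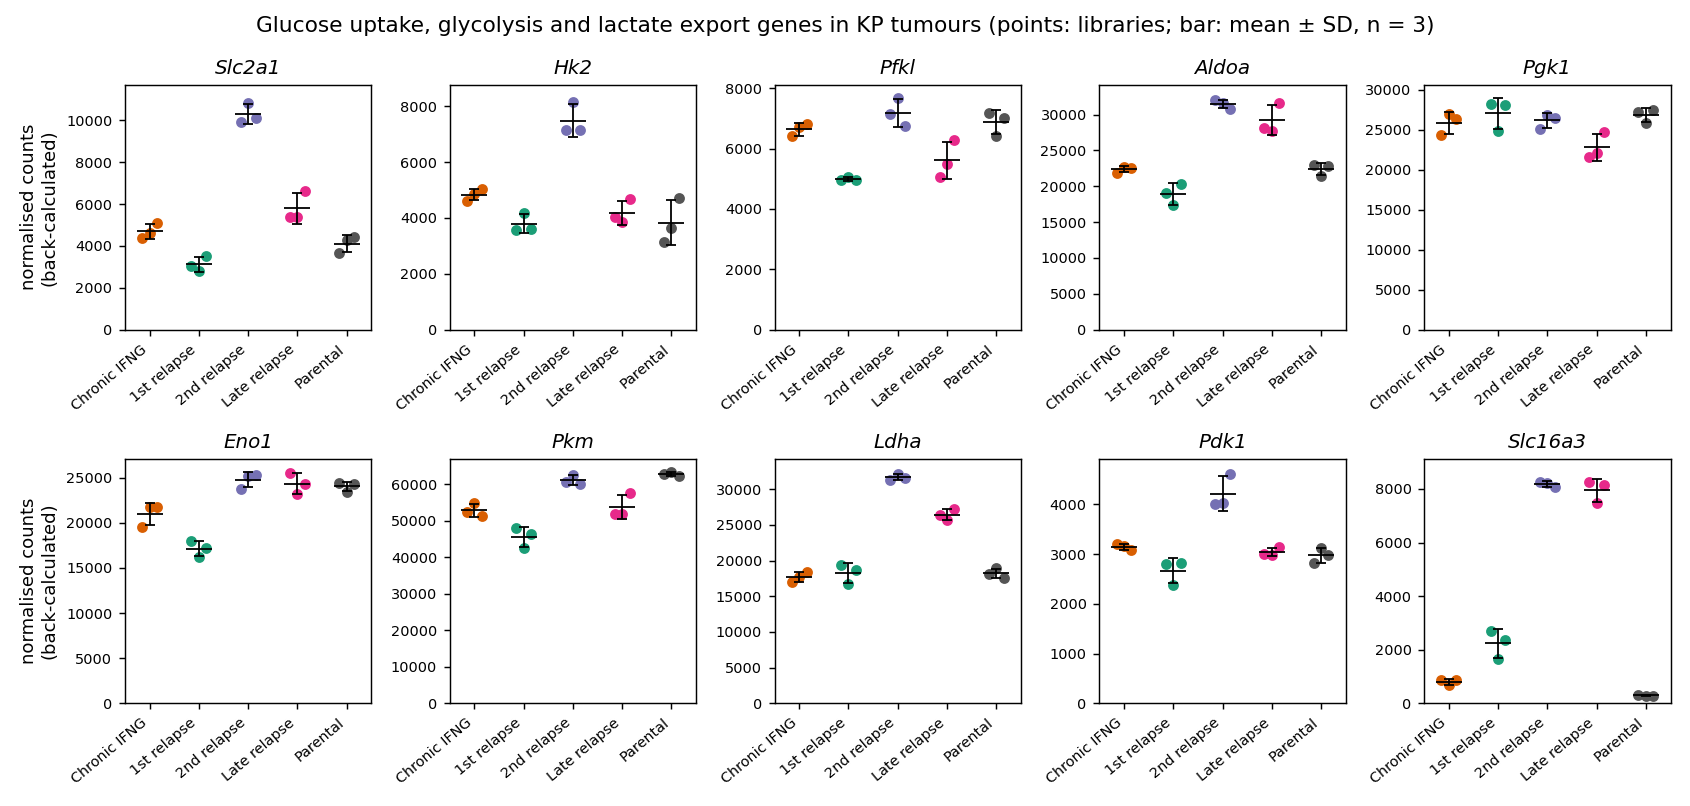
Normalised counts (y axis, linear from 0) of the 10 genes in chronic IFNG, 1st relapse, 2nd relapse, late relapse and parental KP tumours, with points for libraries in replicate order and bars for the mean ± SD (n = 3). Slc16a3 averages 8176 in 2nd and 7949 in late relapse, against 299 in parental tumours, whereas Pgk1 stays between 21525 and 28242 in all libraries.

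In 1st relapse KP tumours, 5 of the 10 genes fell and only Slc16a3 rose relative to parental KP tumours. Of all tested genes, 50.9% were called, 25.4% as higher and 25.5% as lower, so that the members' share of 6 in 10 was near the background. The median log2 difference was -0.19 over the 10 genes and -0.01 over all tested genes. Slc16a3 had 2698, 1636 and 2379 normalised counts in 1st relapse tumours, against 326, 281 and 290 in parental tumours. It was 7.49-fold higher (log2 difference 1.84, SE 0.11, limma adjusted p = 1.74e-08).

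The transporter and 4 enzymes fell in 1st relapse. Slc2a1 had 3061, 2785 and 3513 normalised counts in 1st relapse KP tumours, against 3636, 4271 and 4406 in parental KP tumours. It was 1.32-fold lower (limma adjusted p = 0.00589), with a small gap between the groups. Eno1 had 17926, 16238 and 17225 normalised counts in 1st relapse tumours and 24387, 23437 and 24281 in parental tumours, 1.40-fold lower (limma adjusted p = 6.89e-06). Pkm (limma adjusted p = 1.09e-05) and Pfkl (0.000129) were each 1.38-fold lower, and Aldoa was 1.18-fold lower (0.00511). Under quantile normalisation the Aldoa call was lost, with a log2 difference of -0.05, and Pgk1 (0.19, limma adjusted p = 0.00447) and Ldha (0.11, 0.0473) were called higher. Hk2, Ldha and Pgk1 had log2 differences between 0.00 and 0.01 and were not called, and Pdk1 was at -0.14 (limma adjusted p = 0.0765, or 0.0262 under median centring).

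In 2nd relapse KP tumours, 6 of the 10 genes rose relative to parental KP tumours and none fell. Of all tested genes, 65.8% were called, 36.8% as higher and 29% as lower, so that the members' share of 6 in 10 called was near the background. The median log2 difference was 0.46 over the 10 genes and 0.03 over all tested genes. Slc16a3 had 8244, 8228 and 8057 normalised counts in 2nd relapse tumours, against 326, 281 and 290 in parental tumours. The 3 values of 2nd relapse lay within a narrow band, and the mean was 27.4-fold higher (log2 difference 3.51, SE 0.11, limma adjusted p = 6.58e-12).

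Uptake and phosphorylation of glucose were also higher at the RNA level in 2nd relapse. Slc2a1 had 9905, 10836 and 10130 normalised counts in 2nd relapse KP tumours, against 3636, 4271 and 4406 in parental KP tumours. All 3 libraries stood above every other KP library, and the mean was 2.51-fold higher (log2 difference 1.22, SE 0.09, limma adjusted p = 2.46e-08). Hk2 had 7144, 8167 and 7133 normalised counts in 2nd relapse tumours, against 3128, 3638 and 4723 in parental tumours, 1.95-fold higher (limma adjusted p = 4.44e-06). Ldha and Pdk1 rose as well. Ldha had 31279, 32172 and 31589 normalised counts in 2nd relapse tumours, against 18118, 18883 and 17614 in parental tumours. It was 1.74-fold higher (log2 difference 0.78, SE 0.06, limma adjusted p = 1.38e-08). Pdk1 was 1.42-fold higher (limma adjusted p = 2.07e-05) and Aldoa 1.41-fold higher (7.2e-06), both without overlap.

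The other 4 enzymes were not called in 2nd relapse. Log2 differences from parental KP tumours were 0.06 for Pfkl (95% interval -0.08 to 0.20), 0.04 for Eno1 (-0.08 to 0.16), -0.04 for Pgk1 (-0.18 to 0.10) and -0.04 for Pkm (-0.16 to 0.08). The upper ends of these intervals lie below the 0.48 of Aldoa. Under quantile normalisation 3 of them were called lower, Eno1 at -0.18 (limma adjusted p = 0.00136) and Pkm and Pgk1 at -0.29 each.

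In late relapse KP tumours, 4 of the 10 genes rose and 3 fell relative to parental KP tumours. Of all tested genes, 56.9% were called, 31% as higher and 25.9% as lower. The median log2 difference was 0.08 over the 10 genes and 0.01 over all tested genes. Slc16a3 had 8253, 7465 and 8128 normalised counts in late relapse tumours, against 326, 281 and 290 in parental tumours, 26.6-fold higher (log2 difference 3.47, SE 0.11, limma adjusted p = 2.57e-11). Ldha had 26320, 25675 and 27255 normalised counts in late relapse tumours and 18118, 18883 and 17614 in parental tumours, 1.45-fold higher (limma adjusted p = 2.44e-06). Both genes were above all parental libraries in all 3 late relapse libraries.

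Slc2a1 had 5362, 5381 and 6632 normalised counts in late relapse KP tumours, against 3636, 4271 and 4406 in parental KP tumours, 1.41-fold higher (limma adjusted p = 0.000826). Aldoa was higher by 0.37 on the log2 scale (limma adjusted p = 0.000146). Lower in late relapse were Pfkl (1.22-fold, limma adjusted p = 0.00305), Pgk1 (1.18-fold, 0.00724) and Pkm (1.17-fold, 0.00371). Hk2, Eno1 and Pdk1 were not called, with log2 differences between 0.02 and 0.12. Hk2 was called without parental replicate 3 (log2 difference 0.27, limma adjusted p = 0.0241).

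The relapse groups were compared with each other. Between 2nd and 1st relapse KP tumours, 9 of the 10 genes rose, against a background of 62.2% of tested genes called, 34.3% as higher and 28% as lower. Slc16a3 averaged 8176 ± 104 normalised counts in 2nd relapse tumours and 2238 ± 545 in 1st relapse tumours (SD, n = 3 each), 3.65-fold higher (limma adjusted p = 1.04e-08). Slc2a1 averaged 10290 ± 486 in 2nd relapse tumours and 3120 ± 367 in 1st relapse tumours, 3.30-fold higher (limma adjusted p = 3.09e-09). The other genes that rose did so by log2 differences of 0.42 (Pkm) to 0.89 (Hk2). Pkm turned to a log2 difference of -0.05 under quantile normalisation. Pgk1 was the exception, at -0.05 (95% interval -0.19 to 0.10, limma adjusted p = 0.568), although quantile normalisation called it lower at -0.48.

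Between late and 1st relapse KP tumours, 7 genes rose and 1 fell, with 48.1% of all tested genes called, 24.6% as higher and 23.5% as lower. Slc16a3 was 3.55-fold higher (limma adjusted p = 8.75e-08), Slc2a1 1.86-fold (1.21e-05), Aldoa 1.54-fold (3.7e-06), Ldha 1.45-fold (5.52e-06) and Eno1 1.42-fold (9.48e-06). Pkm was 1.18-fold higher (limma adjusted p = 0.00304) and Pgk1 1.19-fold lower (0.00713). The Pkm call was lost under quantile normalisation, where its log2 difference was 0.03 (limma adjusted p = 0.62). The rise of Pdk1 (1.14-fold, limma adjusted p = 0.0375) was lost without 1st relapse replicate 2 (0.186) or any late relapse library (0.0578 to 0.105), and also with no filter (0.0815), under quantile normalisation (0.169), with the 2 groups alone (0.0741) or with array weights (0.0573). Pfkl was gained without late relapse replicate 1 (0.0197).

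Between late and 2nd relapse KP tumours, 7 genes fell and none rose, with 54.9% of all tested genes called, 25.2% as higher and 29.7% as lower. Hk2 averaged 4184 ± 435 normalised counts in late relapse tumours and 7482 ± 594 in 2nd relapse tumours (SD, n = 3 each), 1.79-fold lower (limma adjusted p = 3.27e-05). Slc2a1 was 1.78-fold lower (limma adjusted p = 5.25e-06), Pdk1 1.38-fold, Pfkl 1.28-fold and Ldha 1.20-fold (0.00117). Slc16a3 was not called, at -0.04 on the log2 scale (95% interval -0.27 to 0.20). The smaller calls were fragile: Pgk1 (limma adjusted p = 0.0191) was lost without 2nd relapse replicate 2 (0.0638) or 3 (0.0545) or late relapse replicate 1 (0.0761) or 2 (0.0629), and Pkm (0.012) without late relapse replicate 2 (0.0501). Under quantile normalisation Pgk1 and Pkm turned sign, to 0.02 and 0.08, Ldha was lost at -0.06 (limma adjusted p = 0.273), and Eno1, not called otherwise, was called higher at 0.18 (0.00178). Aldoa was gained without late relapse replicate 3 (0.0361).

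Over the 5 KP groups, the order of Slc16a3 was 2nd relapse, late relapse, 1st relapse, chronic IFNG and parental from high to low, and only 2nd and late relapse overlapped. Ldha had 2nd relapse above late relapse above the other 3 groups, which overlapped each other in sequence. Slc2a1 ran from 2nd relapse through late relapse, chronic IFNG and parental to 1st relapse tumours, with an overlap between chronic IFNG and parental tumours only among neighbours in that order. Pgk1 had no gap between any neighbouring groups.

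**Figure D3:**
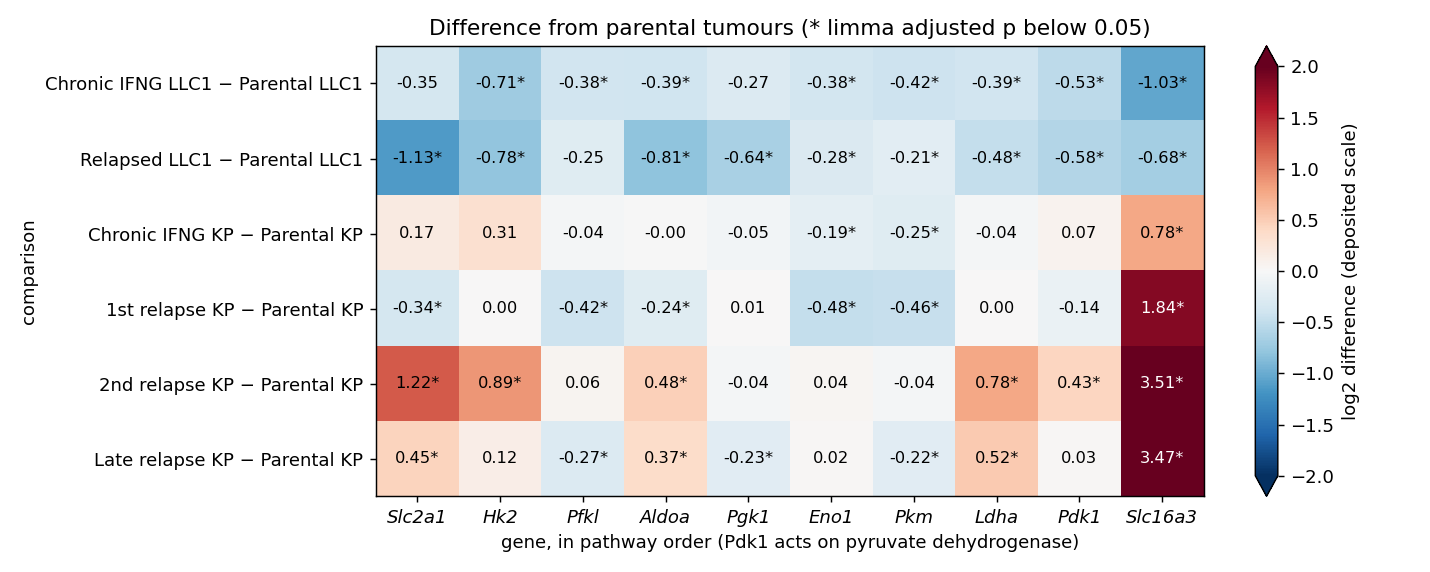
Log2 differences (deposited scale, colour and printed value) of the 10 genes in columns, for the 6 comparisons with parental tumours in rows, with an asterisk for limma adjusted p below 0.05. All LLC1 values are negative, although Pkm in relapsed LLC1 tumours turns positive under quantile normalisation, and Slc16a3 reaches 3.51 in 2nd relapse and 3.47 in late relapse KP tumours.

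Cell type markers and proliferation genes shifted among the KP groups too. The fibroblast marker sum was 433 to 1367 CPM in chronic IFNG tumours, 2884 to 4037 in 1st relapse, 59.4 to 93.7 in 2nd relapse, 550 to 2494 in late relapse and 620 to 1003 in parental tumours. Of 8 fibroblast markers, 7 rose in 1st relapse and 8 fell in 2nd relapse tumours relative to parental tumours. The macrophage marker sum was 254 to 298 CPM in 2nd relapse and 184 to 303 in late relapse tumours, against 73.5 to 103 in parental tumours. Most of it was Mrc1, which averaged 6879 ± 589.7 normalised counts in 2nd relapse and 1630 ± 269 in parental tumours, whereas Lyz2, the other macrophage marker tested, averaged 31.1 ± 10.8 in 2nd relapse and 161 ± 73.2 in parental tumours (SD, n = 3 each), a fall (limma adjusted p = 0.00508). The leukocyte marker Lcp1 also fell in 2nd relapse (4.37-fold, limma adjusted p = 0.00154). The epithelial sum was 7803 to 8475 CPM in 2nd relapse and 5270 to 5595 in late relapse, against 4339 to 4360 in parental tumours. Of 10 proliferation genes, relative to parental tumours, none rose and 1 fell in chronic IFNG, and 6 rose and none fell in 1st relapse. In 2nd relapse 8 rose and 1 fell, and in late relapse tumours 7 rose and none fell. The shares over all tested genes were 12.8% higher and 9% lower in chronic IFNG and 25.4% and 25.5% in 1st relapse. They were 36.8% and 29% in 2nd relapse and 31% and 25.9% in late relapse. The part of these markers in the differences of the glycolytic genes was not tested.

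In KP, the genes around Slc16a3 on chromosome 11 had smaller differences than Slc16a3. The 20 nearest tested genes, 10 on each side between positions 120625117 and 121673153 (GRCm38), had a median log2 difference from parental tumours of 0.00 in chronic IFNG, 0.04 in 1st relapse, -0.02 in 2nd relapse and 0.09 in late relapse tumours. Their highest single values were 0.45 in 1st, 0.41 in 2nd and 0.39 in late relapse, and the lowest was -0.48 in 2nd relapse (Hexdc, called). Fasn, the fatty acid synthase gene next to it on one side, was at 0.27 in 2nd relapse, and Csnk1d, a casein kinase gene next to it on the other side, was at -0.07. In relapsed against parental LLC1 tumours, where Slc16a3 was at -0.68, the neighbours reached from -0.96 (Hmga1b, not called) to 0.25 (Fasn, called), and Dcxr was called at -0.52. The 20 tested genes nearest to Pgk1 on the X chromosome, between positions 104077434 and 133688987, differed between the relapse groups. Relative to parental tumours, their median was 0.11 in 1st relapse, with 10 called higher and 2 lower. It was -0.21 in 2nd relapse, with 3 called higher and 11 lower, and -0.20 in late relapse, with 2 called higher and 13 lower. Over all tested KP genes, 25.4% were called higher and 25.5% lower in 1st relapse. These shares were 36.8% and 29% in 2nd relapse, and 31% and 25.9% in late relapse. Shifts of neighbouring genes were not particular to Pgk1. In 2nd relapse the neighbour medians of the 10 genes ran from -0.296 for Pkm, with 6 called higher and 12 lower, to 0.164 for Hk2, with 11 higher and 3 lower. That of Pdk1 was -0.215, with 1 higher and 13 lower.

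**Figure D4:**
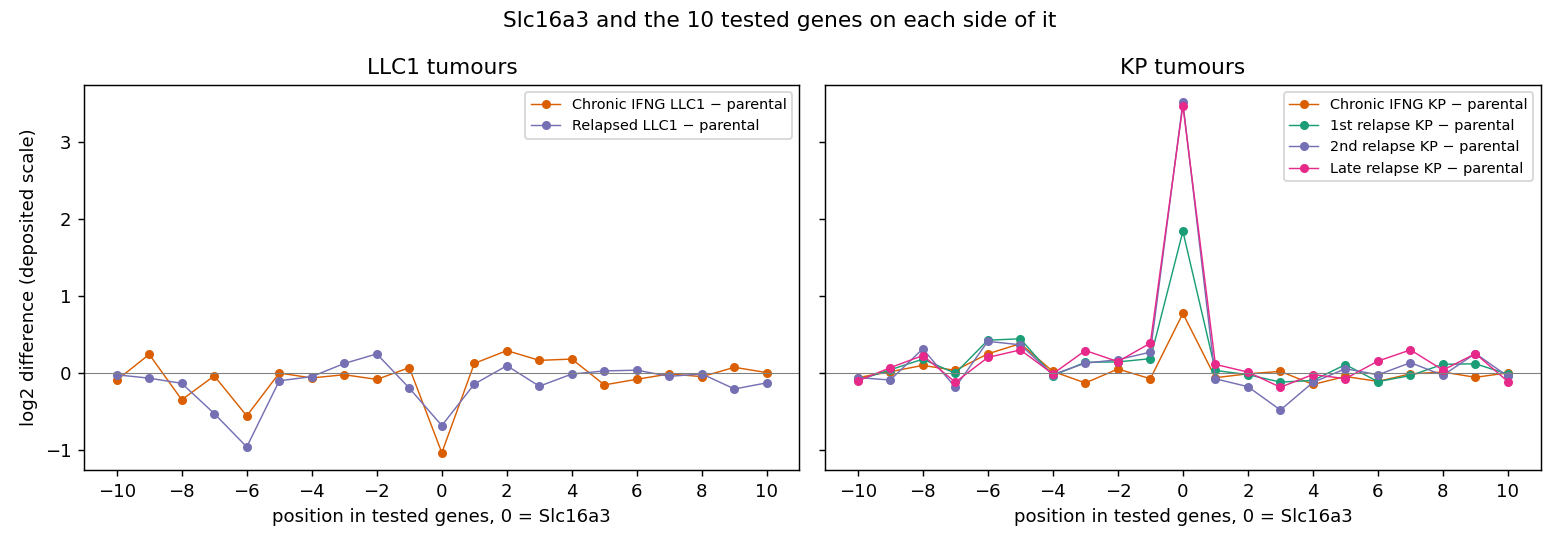
Log2 difference from parental tumours (y axis, deposited scale) of Slc16a3 at position 0 and of the 10 tested genes on each side of it, in order along the chromosome, for LLC1 (left) and KP (right). In KP the neighbours lie between -0.48 and 0.45 while Slc16a3 reaches 3.51 in 2nd relapse tumours.

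Other genes of the pathway were followed as a list of 29 enzymes and carriers, of which 19 were tested in each line. In LLC1, 6 of 19 fell and none rose in chronic IFNG tumours relative to parental tumours. In relapsed tumours 6 fell and 4 rose, or 5 and 5 under quantile normalisation. Over all tested LLC1 genes, 15.5% were called lower and 9.03% higher in chronic IFNG tumours, and 19.5% lower and 25.9% higher in relapsed tumours. Gapdh, the dehydrogenase step between aldolase and Pgk1, averaged 44113 ± 4346 normalised counts in chronic IFNG tumours, 35359 ± 3898 in relapsed tumours and 65397 ± 6042 in parental tumours (SD, n = 3 each, limma adjusted p = 0.00349 and 6.37e-05 against parental). The Gapdh call in chronic IFNG tumours was lost under quantile normalisation (limma adjusted p = 0.0979). Gpi1, the isomerase after hexokinase, was 1.82-fold lower in relapsed tumours (limma adjusted p = 0.000186). The second lactate carrier Slc16a1 differed from Slc16a3. It averaged 6835 ± 503 normalised counts in chronic IFNG tumours, 11146 ± 464 in relapsed tumours and 10339 ± 878 in parental tumours (SD, n = 3 each), a fall in chronic IFNG tumours (limma adjusted p = 0.000865) and a log2 difference of 0.11 in relapsed tumours (0.256, or 0.0158 under quantile normalisation).

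In KP, relative to parental tumours, 11 of the 19 rose and 2 fell in 2nd relapse, and 10 rose and 1 fell in late relapse. In 1st relapse 6 rose and 5 fell, and in chronic IFNG tumours 3 rose and 2 fell (3 and 4 under median centring). Median centring also lost the rises of Pfkp, Pfkfb3 and Hk1 in late relapse (limma adjusted p of 0.0552 to 0.0873). It lost that of Slc16a1 in 2nd relapse (0.0512), and Pgam1 (0.0486) and Eno3 (0.0308) were then called lower in 1st relapse. Quantile normalisation changed calls of this list in the relapse groups too. Over all tested KP genes, 36.8% were called higher and 29% lower in 2nd relapse, and 31% and 25.9% in late relapse. These shares were 25.4% and 25.5% in 1st relapse, and 12.8% and 9% in chronic IFNG tumours. The share of the list called in either direction was near the background in the relapse groups. Gapdh averaged 31544 ± 1978 normalised counts in 1st relapse, 104055 ± 3156 in 2nd relapse, 62696 ± 2320 in late relapse and 53349 ± 4981 in parental tumours (SD, n = 3 each). It fell 1.69-fold in 1st relapse (limma adjusted p = 1.08e-06) and was 1.95-fold higher in 2nd relapse (2.51e-08). Tpi1, the triose isomerase, was 2.05-fold higher in 2nd relapse (limma adjusted p = 1.04e-08). The minor isozyme genes Pklr and Aldoc rose as well. Pklr, the liver-type pyruvate kinase gene, averaged 541 ± 64.7 normalised counts in 2nd relapse and 20.1 ± 15.2 in parental tumours, and Aldoc 945 ± 33.5 in 2nd relapse and 220 ± 32.1 in parental tumours (SD, n = 3 each).

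Hypoxia-responsive genes outside glycolysis were followed as a list of 18. In LLC1, 14 of 18 fell and 2 rose in relapsed tumours (median log2 difference -0.46), and 6 fell and 1 rose in chronic IFNG tumours (-0.22). Among all tested LLC1 genes, 19.5% were lower and 25.9% higher in relapsed tumours, and 15.5% lower and 9.03% higher in chronic IFNG tumours. Ero1l, an endoplasmic reticulum oxidase gene, was 2.88-fold lower in relapsed tumours (limma adjusted p = 0.000234), and Adm, the adrenomedullin gene, was 2.88-fold lower in chronic IFNG tumours (0.0011). In KP, 12 of 17 rose and 1 fell in 2nd relapse (median 0.38), whereas 10 fell and 1 rose in 1st relapse (-0.23). Late relapse had 6 higher and 4 lower (0.16), and chronic IFNG tumours 3 higher and 2 lower (0.07). Among all tested KP genes, 36.8% were higher and 29% lower in 2nd relapse, and 25.4% and 25.5% in 1st relapse. In late relapse these shares were 31% and 25.9%, and in chronic IFNG tumours 12.8% and 9%. Ndrg1, a stress-response gene, averaged 2507 ± 384 normalised counts in 1st relapse, 14617 ± 534 in 2nd relapse and 4950 ± 776 in parental tumours (SD, n = 3 each, limma adjusted p = 0.00016 and 3.02e-07 against parental).

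Among 20 regulators of the pathway, Hif1a, which encodes the oxygen-regulated subunit of hypoxia-inducible factor 1, fell in all 6 comparisons with parental tumours. It averaged 9149 ± 215 normalised counts in 2nd relapse KP tumours, against 11699 ± 380 in parental KP tumours (SD, n = 3 each, limma adjusted p = 0.00459). In relapsed LLC1 tumours it averaged 6311 ± 307, against 10156 ± 2143 in parental LLC1 tumours (limma adjusted p = 0.00144). Txnip, which restrains glucose uptake, rose in 5 of the 6 comparisons and had a log2 difference of 0.23 in 2nd relapse (limma adjusted p = 0.0693). Of the regulators tested, 9 of 16 rose and 4 fell in 2nd relapse, and 3 of 15 rose and 6 fell in relapsed LLC1 tumours. The shares over all tested genes were 36.8% higher and 29% lower in 2nd relapse, and 25.9% and 19.5% in relapsed LLC1 tumours.

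A further list held genes of pyruvate entry to mitochondria and of its use there, with kinases and phosphatases of opposing function. Of these, 3 of 10 tested rose and 1 fell in 2nd relapse KP tumours. In late relapse 1 rose and 4 fell (7 under quantile normalisation or median centring), and in relapsed LLC1 tumours 4 of 11 rose and 1 fell. Over all tested genes, 36.8% were higher and 29% lower in 2nd relapse, 31% and 25.9% in late relapse, and 25.9% and 19.5% in relapsed LLC1 tumours. Pdp1 and Pdp2, the phosphatases that oppose Pdk1, went opposite ways in 2nd relapse. Pdp1 averaged 415 ± 43.7 normalised counts in 2nd relapse and 784 ± 50.4 in parental tumours, and Pdp2 averaged 680 ± 27.3 in 2nd relapse and 343 ± 59 in parental tumours (SD, n = 3 each, limma adjusted p = 8.61e-07 and 6.78e-07). Of side branches and gluconeogenesis, 16 of 24 rose and 2 fell in 2nd relapse, 14 rose and 3 fell in late relapse, and 4 of 22 rose and 8 fell in relapsed LLC1 tumours. Phgdh, which starts serine synthesis from a glycolytic intermediate, averaged 12089 ± 1038 normalised counts in late relapse and 4917 ± 354 in parental KP tumours (SD, n = 3 each), 2.46-fold higher (limma adjusted p = 6.58e-09).

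**Figure D5:**
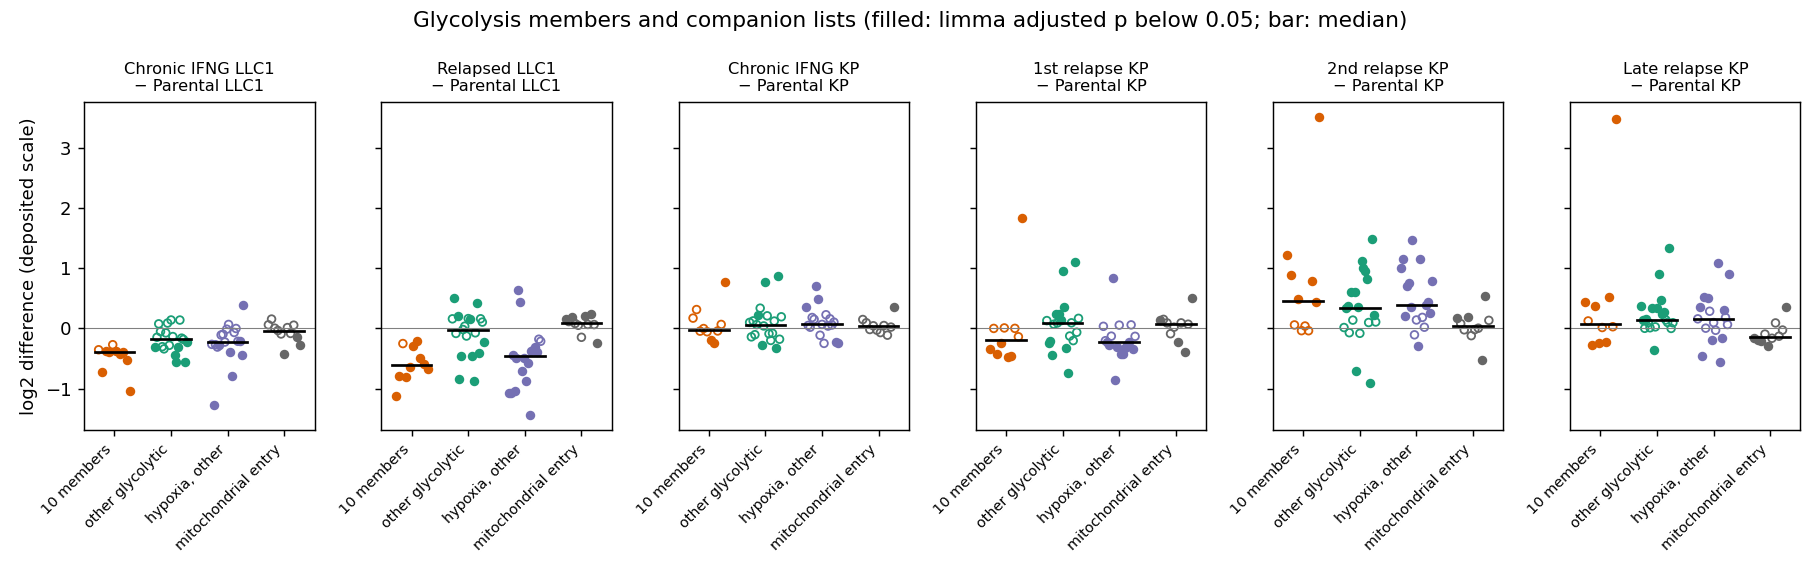
Log2 difference from parental tumours (y axis, deposited scale) of each gene in 4 lists, by comparison. The lists are the 10 genes, other glycolytic enzymes and carriers, hypoxia-responsive genes outside glycolysis, and genes of pyruvate entry to mitochondria and its use there. Points are genes, filled where the limma adjusted p is below 0.05, and bars are list medians, which for the 10 genes run from -0.61 in relapsed LLC1 to 0.46 in 2nd relapse KP tumours.

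In LLC1, the 10 genes were often highest or lowest in the same library of a group: all 10 were lowest in relapsed replicate 1 and highest in relapsed replicate 3, and 9 were lowest in chronic IFNG replicate 1 and in parental replicate 3. In KP, 8 were lowest in 1st relapse replicate 2 and 8 were highest in late relapse replicate 3. In parental KP tumours, 4, 3 and 3 of the 10 were highest in replicates 1, 2 and 3, and in chronic IFNG KP tumours 2, 3 and 5. The shares of all tested genes highest or lowest in these libraries are not given here. These counts therefore do not show a pattern particular to the 10 genes. The gene whose library profile lay nearest the median profile of the 10 was Tpi1 in LLC1, with a root-mean-square distance of 0.04 log2 units over 9 libraries, followed by Ppp1r3b, Pthlh, Rpl28-ps1 and Cebpb. In KP the nearest were Lims2, Mthfd1l, Prkacb, Ninj1 and Fam204a, at 0.06 to 0.07 log2 units over 15 libraries. Among the 10, Ldha was nearest in LLC1 (0.05) and Pdk1 in KP (0.07), and Slc16a3 was farthest in KP (1.31).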

How the data were processed

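Live CD45-negative cells were sorted from day 15 tumours after red blood cell lysis, and DNase I-treated RNA gave stranded total RNA libraries sequenced paired-end on a NovaSeq, per the labels' protocols. Listed in the submitters' processing notes, with no role for any of them, are DESeq2 1.34.0, Salmon 1.8.0, cutadapt 2.9 and GRCm38/mm10. Annotation and options are not given in the sources used here. The authors deposited log2 values after variance stabilisation, in 1 table per line, normalised separately, so levels were not compared between lines.

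A count of 0 was set at the lowest value, 8.03 for LLC1 and 8.17 for KP, and the transform, whose form was inferred from the values, was inverted to normalised counts. In each library 70.5% to 77.7% of values up to 10 normalised counts then lay within 0.15 of a whole read, against 30% by chance. Depth was estimated from that spacing. Identifiers were matched to GENCODE vM21, and 70 LLC1 and 85 KP identifiers had no symbol. Promoters came from RefSeq (GRCm38.p6), and all 10 genes matched.

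Genes were kept where a group mean lay at least 1 log2 unit above that value, which corresponds to 130 (LLC1) and 144 (KP) normalised counts, leaving 10581 and 11193. limma 3.58.1 in R 4.3.3 was fitted to the log2 values, once per line over all its groups, with a trend of variance on intensity. p-values were adjusted by Benjamini and Hochberg over all kept genes in each of 10 comparisons (3 in LLC1, 7 in KP), and adjusted p below 0.05 was called. The fit was tested on simulated data. With 3 libraries against 3, an exact permutation test of a single gene cannot give a p below 0.1. Python 3.11.15 drew the figures. The alleles of the KP model are not reported here.

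The 10 genes, the lists and the comparisons were chosen with earlier results of these data known. The text names all 10 genes, up to 4 genes per list with the largest differences from parental tumours, and the 5 nearest profiles per line. The genes next to Slc16a3 were added to show its surroundings. Same-numbered libraries of 1st relapse and parental KP tumours deviated together (r = 0.149, 0.112 and 0.206 across genes), which met a rule of r over 0.1 in every pair. No label states a shared batch or a pairing, and differently numbered libraries were not compared, so pairing is not established. The replicate number as a block changed no call of the 10 genes there. Alternatives were other filters, scalings, pseudocounts of 10 and 1, array weights, no intensity trend, fits of 2 groups only, the replicate block and leaving out each library.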

Additional observations from a re-analysis of the deposited data

Results flagged for a closer look

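For 17 combinations of gene and comparison with parental tumours, the log2 difference had opposite signs in the 2 lines. Every library of the group then lay on 1 side of the parental mean in KP and on the other in LLC1. The share of all tested genes that meet this rule is not given here. Other genes were called lower in both lines: Pkm and Eno1 in chronic IFNG tumours. Beside relapsed LLC1 they were Slc2a1, Aldoa, Eno1 and Pkm in 1st relapse KP, and Pgk1 and Pkm in late relapse KP. The difference between lines was not tested, because the tables were normalised separately. Values are log2 differences from parental tumours of the same line.

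In chronic IFNG tumours the values were 0.17 in KP and -0.35 in LLC1 for Slc2a1, 0.31 in KP and -0.71 in LLC1 for Hk2, 0.067 in KP and -0.53 in LLC1 for Pdk1, and 0.77 in KP and -1.03 in LLC1 for Slc16a3. Of these, Slc2a1 was called in neither line, and Hk2 and Pdk1 were called in LLC1 alone.

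Relapsed LLC1 tumours were set beside each KP relapse group. Slc16a3 was at 1.84 in 1st relapse KP, 3.51 in 2nd relapse KP and 3.47 in late relapse KP, against -0.68 in relapsed LLC1 tumours. Slc2a1 was at 1.22 in 2nd relapse and 0.44 in late relapse KP, against -1.13 in relapsed LLC1. Hk2 was at 0.89 in 2nd relapse and 0.12 in late relapse KP, against -0.78 in relapsed LLC1. Aldoa was at 0.48 in 2nd relapse and 0.37 in late relapse KP, against -0.81 in relapsed LLC1. Ldha was at 0.78 in 2nd relapse and 0.52 in late relapse KP, against -0.48 in relapsed LLC1. Pdk1 was at 0.43 in 2nd relapse and 0.029 in late relapse KP, against -0.58 in relapsed LLC1. Hk2 and Pdk1 were not called in late relapse KP tumours. Groups of 3 libraries are too small for a check of single outlying libraries.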

How the results depend on the processing

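Over settings other than leaving out a library, 957 differences of single genes kept their side of the threshold, 15 passed it and 19 no longer passed it. A further 6 turned sign and were called in at least 1 of the 2 fits. Differences called in neither fit count among the 957 whatever their sign. All 6 came from quantile normalisation: Pkm in relapsed against parental LLC1 (0.11), Eno1 in 2nd relapse against parental KP (-0.18), Pkm in 2nd against 1st relapse (-0.0522), and Pkm (0.0808), Pgk1 (0.0225) and Eno1 (0.18) in late against 2nd relapse; the cause was not tested. Leaving out 1 library kept the call for 561 single differences, gained it for 9 and lost it for 30. The number of the 10 genes called then ranged from 5 to 9 in chronic IFNG LLC1, 7 to 10 in relapsed LLC1, 3 to 5 between those groups, 2 to 3 in chronic IFNG KP, 6 to 6 in 1st relapse, 6 to 6 in 2nd relapse and 7 to 8 in late relapse KP against parental tumours, 9 to 9 in 2nd against 1st, 7 to 8 in late against 1st and 5 to 8 in late against 2nd relapse. The 5 came without parental LLC1 replicate 1. With the replicate number as a block, Pkm in relapsed against parental LLC1 (limma adjusted p = 0.0752) and Slc16a3 in relapsed against chronic IFNG LLC1 (0.0556) were lost. Hk2 in chronic IFNG KP (0.0376) was gained, and no other call of the 10 genes changed. In these comparisons the numbers did not meet the rule of r over 0.1 in every pair. Over all genes, the stricter filter of 3 log2 units tested fewer genes and cut the calls from 2596 to 1210 in chronic IFNG LLC1, 4809 to 1776 in relapsed LLC1, 5503 to 1907 between them, 2438 to 972 in chronic IFNG KP, 5697 to 2001 in 1st, 7367 to 2515 in 2nd and 6365 to 2197 in late relapse, 6967 to 2452 in 2nd against 1st, 5380 to 1933 in late against 1st and 6148 to 2188 in late against 2nd relapse. Calls in chronic IFNG LLC1 were 1556 and 1729 without parental replicate 1 and 2 and 1671 without chronic IFNG replicate 2, and in chronic IFNG KP 1579 without chronic IFNG replicate 1. Median centring split the calls between relapsed and chronic IFNG LLC1 into 2701 higher and 2776 lower (3337 and 2166 without it), and those in chronic IFNG KP into 1291 and 1508 (1431 and 1007 without it); no filter gave 3500 and 3998 for the LLC1 pair. Slc16a3, with 281 to 412 normalised counts in its lowest groups, is the member whose log2 difference is most compressed by the deposited scale. Under the stricter filter Slc16a3 was not tested in LLC1, where its highest group mean, in parental tumours, was 10.68 log2 units.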

Other observations

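Genes on branches that leave glycolysis moved in KP relapse. Gpd1, which makes glycerol 3-phosphate, averaged 596 ± 200 normalised counts in chronic IFNG, 833 ± 58.4 in 1st relapse, 701 ± 24.9 in 2nd relapse and 485 ± 82.3 in late relapse tumours, against 127 ± 48 in parental KP tumours (SD, n = 3 each), and rose in all 4 comparisons (limma adjusted p between 8.42e-07 and 5.15e-05). Gfpt1, the entry enzyme of hexosamine synthesis, averaged 4304 ± 481 in 1st relapse and 1939 ± 265 in parental KP tumours, 2.22-fold higher (limma adjusted p = 2.12e-06). Its paralog Gfpt2 was 8.74-fold lower in relapsed LLC1 tumours, at 44.2 ± 8.14 normalised counts against 387 ± 59.1 in parental LLC1 tumours (limma adjusted p = 8.05e-07).

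Epas1, which encodes the second oxygen-regulated factor subunit, was tested in KP. It averaged 324 ± 101 normalised counts in chronic IFNG, 458 ± 112 in 1st relapse, 246 ± 15.8 in 2nd relapse and 152 ± 19.2 in late relapse tumours, against 103 ± 31 in parental tumours (SD, n = 3 each). It rose in the first 3 of these (limma adjusted p = 0.000735, 1.05e-05 and 0.0017) and was not called in late relapse (0.158), while Hif1a fell in the same 4 comparisons.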
